A study of Arabidopsis thaliana with 12 samples.

Results

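The genes described here encode small subunits of the photosystems and a light-harvesting antenna protein of Arabidopsis thaliana: PSAN (AT5G64040) of photosystem I, PSBW (AT2G30570), PSBY (AT1G67740) and PSB27 (AT1G03600) of photosystem II, and LHB1B2 (AT2G34420) of the light-harvesting complex of photosystem II (LHCII). They are 5 of the 692 probes for which the platform annotation lists exactly 1 gene, in a value table of 3439 probes, and each has 1 such probe. Total RNA of ecotype Columbia 0 was measured in 6 wild-type (WT) samples and in 6 samples of psad1, a mutant without the photosystem I protein PSI-D1 in the same ecotype. The sources used here give neither the tissue nor the age of the plants, the growth conditions or the kind of mutation. No probe that lists 1 or several genes names PSAD-1 or PSAD-2, the genes for PSI-D, so the genotype labels could not be checked on the targeted gene. The comparison asks how the transcripts of other subunits stand when the PSI-D1 form of PSI-D is missing.

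Photosystem II uses light to take electrons from water, and photosystem I passes them on to ferredoxin on the stromal side of the thylakoid membrane. PSI-D helps to form the stromal docking site for ferredoxin. PSAN lies on the opposite, lumenal face of photosystem I, near the place where plastocyanin delivers electrons. PSBW and PSBY are small membrane-spanning proteins of photosystem II, and the PSBY precursor is processed into a pair of related peptides. PSB27 is a lumenal protein that binds photosystem II during its assembly and repair. LHB1B2 encodes a form of Lhcb1, the most abundant protein of the trimeric LHCII antenna.

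The deposited values are linear intensities, with column means between 1.05 and 1.07 and medians between 0.554 and 0.623. Levels of different probes are not comparable on such an array, so each gene is compared only with itself. Within a genotype, 3 sets of 2 samples each (1 with 2, 3 with 4, 5 with 6) behaved as repeats: deviations from the genotype mean correlated across probes with r from 0.469 to 0.649 within these sets and from −0.609 to −0.11 between them. Subtracting the genotype mean in itself lowers the values between sets, so the repeats were read from the positive values within sets. Each set of 2 samples was therefore averaged, and a mean ± SD refers to 3 set averages per genotype (n = 3). The labels do not say whether sets stand for different plants, and p-values therefore reflect only the spread between these sets, which may be technical. Changes were tested with limma on log2 set averages, with the p adjusted over all 3202 tested probes and a threshold of 0.05. All 5 genes lay above the intensity floor in all 12 samples. Precision is limited by the number of sets.

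None of the 5 genes passed the test. Across all tested probes 28 did, which is 0.874% of them. The log2 changes, psad1 minus WT, were 0.27 for PSAN, 0.09 for PSBY, 0.04 for PSB27, −0.05 for LHB1B2 and −0.19 for PSBW. Their median was 0.04, against −0.02 for all tested probes. An unadjusted p under 0.05 was met by PSAN alone (0.031), a mark that 14.9% of all tested probes reached. With the 12 samples taken as independent, the 5 genes did not pass either, where 15.8% of all probes did.

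**Figure D1:**
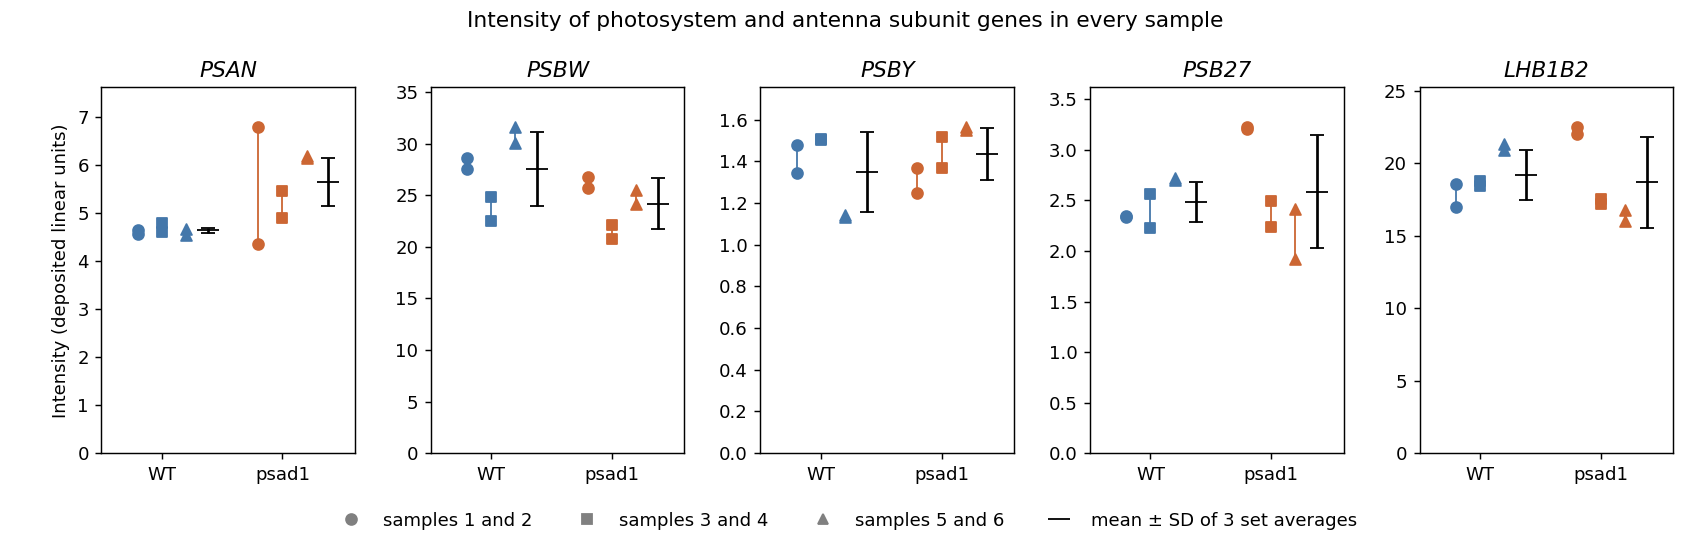
Intensity (vertical axes, deposited linear units, each from 0) of each gene in the 6 WT samples (blue) and the 6 psad1 samples (orange). Marker shapes and lines join the 2 samples of a set, and black bars give the mean ± SD of 3 set averages. PSAN is tight in WT (4.54 to 4.80) and wide in psad1 (4.35 to 6.80). The sample ranges of the genotypes overlap for every gene, and the set averages overlap for every gene but PSAN.

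PSAN, the photosystem I gene, had the widest difference of the 5. In WT its intensity was 4.55, 4.64, 4.61, 4.80, 4.54 and 4.67 in samples 1 to 6. In psad1 it was 6.80, 4.35, 5.45, 4.89, 6.15 and 6.18. Thus 5 of 6 psad1 samples were above all WT samples and 1, sample 2, was below all of them. The set averages were 4.60, 4.71 and 4.60 in WT and 5.58, 5.17 and 6.16 in psad1, and they did not overlap. Set averages lay higher in psad1 without overlap for 8.81% of all tested probes. WT averaged 4.64 ± 0.0608 (SD, n = 3) and psad1 5.64 ± 0.501. The fold from the log2 set averages was 1.20, with a 95% interval from 1.02-fold to 1.42-fold. The log2 change of 0.27 had a standard error (SE) of 0.11 and an adjusted p of 0.294 with limma. An exact two-sided permutation test over the 6 set averages gave p = 0.1, the smallest that 3 sets against 3 allow. The log2 change was 0.16 without psad1 sample 1, whose set then rests on sample 2, and 0.37 without sample 2 (limma adjusted p 0.582 and 0.211). With sample 2 alone, psad1 set 1 stands at 4.35, below all WT set averages, and the genotypes overlap. The lack of overlap thus rests on psad1 sample 1.

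The spread of PSAN differed between the genotypes as well. The SD of its log2 set averages was 0.02 in WT and 0.13 in psad1. The WT value is at percentile 2.09 of all tested probes and the psad1 value at percentile 41.3. PSAN was thus among the most even probes in WT and near the middle in psad1. Its repeat samples of psad1 set 1 differed by 0.64 on the log2 scale, or 1.56-fold, wider than in 99.8% of all tested probes in that set, where the median difference was 0.08. In psad1 set 3 the repeats differed by 0.0061 and in the WT sets by 0.03 to 0.06. Which of the psad1 samples 1 and 2 is nearer to the level of their set was not tested.

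**Figure D2:**
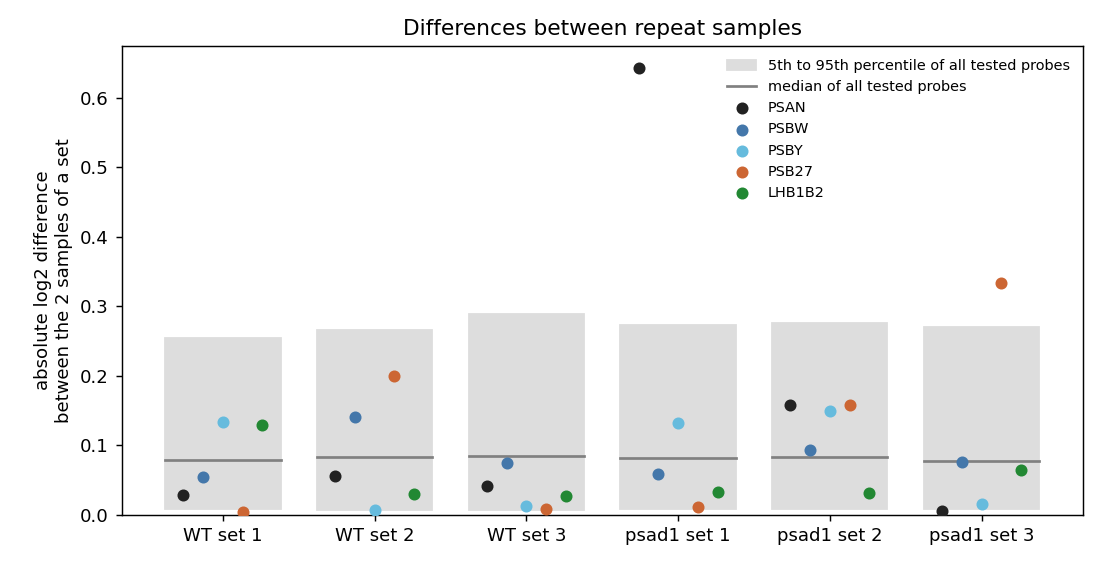
Absolute log2 difference between the 2 repeat samples of each set (vertical axis) for the 5 genes (coloured points), beside the median (grey line) and the 5th to 95th percentile (grey box) of all tested probes. PSAN in psad1 set 1 (0.64) and PSB27 in psad1 set 3 (0.33) lie above the box.

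PSBW, a subunit known to stabilise photosystem II together with its antenna, had the lowest log2 change of the 5 genes. Its intensity in WT samples 1 to 6 was 27.5, 28.6, 24.8, 22.5, 31.6 and 30.1. In psad1 it was 25.7, 26.8, 22.1, 20.7, 25.5 and 24.2. The genotypes overlapped, with 2 of 6 psad1 samples, those of set 2, below all WT samples. Set 2 held the lowest values in both genotypes. WT averaged 27.5 ± 3.61 (SD, n = 3) and psad1 24.2 ± 2.47, for a log2 change of −0.19 (SE 0.13, limma adjusted p 0.521). The 95% interval, from −0.48 to 0.10, includes a level in psad1 of 0.719 times that in WT as well as a small increase. The change was −0.10 without WT set 3, −0.10 without psad1 set 2, −0.29 without WT set 2 and −0.09 after quantile normalization, and passed in none of these. When samples of the same number were paired across genotypes as a block, limma gave PSBW an adjusted p of 0.0356 on the 12 samples, in a fit that 23.8% of all tested probes passed, and of 0.351 on set averages.

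PSBY, whose peptides lie beside cytochrome b559 in photosystem II, differed between genotypes by less than the spread between sets. Its intensity in WT samples 1 to 6 was 1.35, 1.48, 1.50, 1.51, 1.13 and 1.14. In psad1 it was 1.25, 1.37, 1.37, 1.52, 1.57 and 1.55. The 2 samples of WT set 3 were the lowest of all 12, and 3 of 6 psad1 samples were above all WT samples, by a narrow margin. WT averaged 1.35 ± 0.191 (SD, n = 3) and psad1 1.44 ± 0.125, for a log2 change of 0.09 (SE 0.13, 95% interval −0.20 to 0.38, limma adjusted p 0.753). Without WT set 3 the log2 change was −0.02. The direction therefore rests on the single WT set with low values.

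PSB27, the assembly and repair protein, had psad1 samples on both sides of WT. Its intensity in WT samples 1 to 6 was 2.35, 2.34, 2.23, 2.56, 2.70 and 2.72. In psad1 it was 3.21, 3.23, 2.24, 2.50, 1.92 and 2.42. Both samples of psad1 set 1 were above all WT samples and psad1 sample 5 was below all of them. The repeats of psad1 set 3, samples 5 and 6, differed by 0.33 on the log2 scale, at percentile 97.1 of all tested probes. WT averaged 2.48 ± 0.198 (SD, n = 3) and psad1 2.59 ± 0.558, for a log2 change of 0.04 (SE 0.15, 95% interval −0.30 to 0.37, limma adjusted p 0.926). The log2 change was −0.13 without psad1 set 1 and 0.16 without psad1 set 3. The SD of its log2 set averages in psad1, 0.30, was at percentile 91.1 of all tested probes, and that in WT, 0.11, at percentile 47.3.

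LHB1B2, the LHCII antenna gene, also had psad1 samples on both sides of WT. Its intensity in WT samples 1 to 6 was 18.6, 17.0, 18.4, 18.8, 20.9 and 21.3. In psad1 it was 22.5, 22.0, 17.6, 17.2, 16.0 and 16.8. The 2 samples of psad1 set 1 were above all WT samples, those of psad1 set 3 were below all of them, and those of set 2 lay within the WT range. WT averaged 19.2 ± 1.73 (SD, n = 3) and psad1 18.7 ± 3.15, for a log2 change of −0.05 (SE 0.14, 95% interval −0.35 to 0.26, limma adjusted p 0.895). The log2 change was −0.18 without psad1 set 1 and 0.04 without psad1 set 3. In the gene table LHB1B1, another Lhcb1 gene, is the next gene after LHB1B2. The sources used here do not say how far the probe tells Lhcb1 genes apart, so its value may hold signal of several of them.

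**Figure D3:**
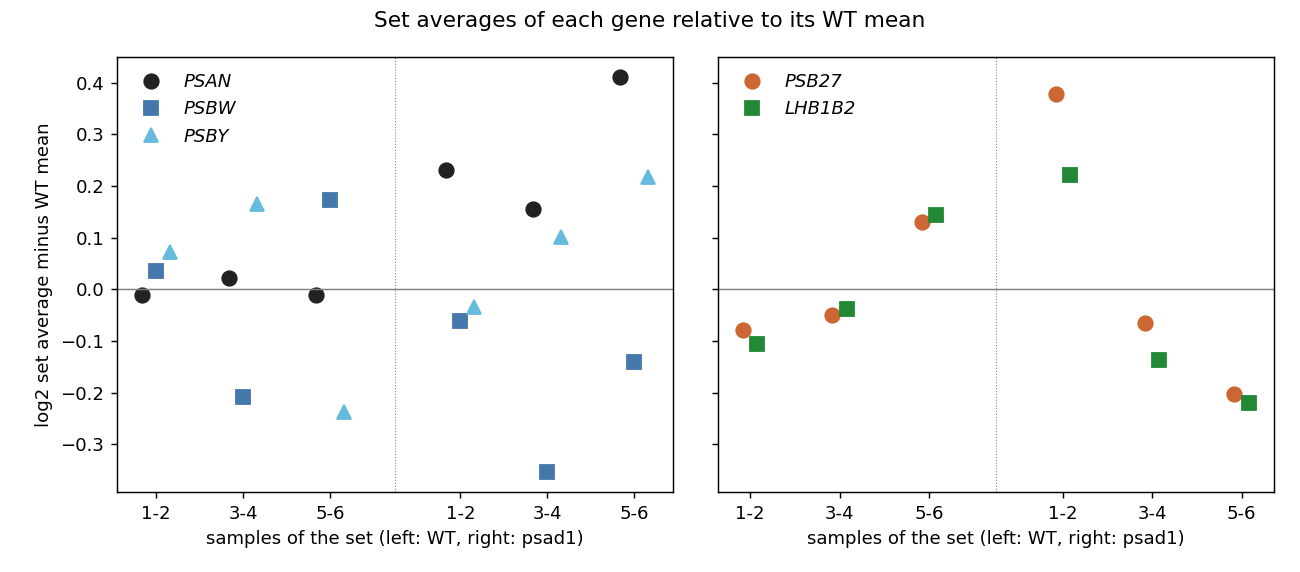
Log2 set average minus the gene's WT mean (vertical axis) for the 3 WT sets and the 3 psad1 sets (horizontal axis, named by their samples), with PSAN, PSBW and PSBY on the left and PSB27 and LHB1B2 on the right. PSB27 and LHB1B2 have their highest WT value in samples 5 and 6 (0.13 and 0.14) and their highest psad1 value in samples 1 and 2 (0.38 and 0.22), while PSAN is above 0 in all 3 psad1 sets.

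PSB27 and LHB1B2 had closely matching patterns over the samples, although they belong to the assembly of photosystem II and to its antenna. For each, set 3 was the highest in WT and set 1 the highest in psad1, and psad1 set 3 was the lowest of all 6 sets. Over the 12 samples their log2 intensities correlated with r = 0.88. Among 639 other tested probes that list 1 gene, LHB1B2 was the one most like PSB27, and PSB27 the one most like LHB1B2. The correlation was 0.83 within the 6 WT samples and 0.94 within the 6 psad1 samples. Over the 12 samples the best matches of PSBW and PSBY had a higher r (0.90 and 0.93), and that of PSAN a lower one (0.75). The SD of the log2 ratio of PSB27 to LHB1B2 over the 6 set averages was 0.06, while the genes themselves had SDs of 0.21 and 0.17. These correlations describe 12 samples that form 6 sets of repeats, share sample scaling and were searched for the best match, so no p is given. The match follows differences between sets within a genotype, not the difference between genotypes, which was near 0 for both genes.

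As deposited, PSBY ran the opposite way over the same sets. It correlated with LHB1B2 at r = −0.78 and with PSB27 at −0.56 over the 12 samples, and with LHB1B2 at −0.88 within WT and −0.87 within psad1. After a correction for probe position these values were −0.30 with LHB1B2 and 0.27 with PSB27, so the opposite run to PSB27 was lost. The other pairs of the 5 genes correlated between −0.67 (PSBW with PSBY) and 0.46 (PSBW with LHB1B2). The genes most like PSAN over the 12 samples were AT2G44530 (r = 0.75), AT1G22850 (0.75) and AT2G29180 (0.74). For PSBW they were AT2G36480 (0.90), AT2G43760 (0.87) and AT2G35450 (0.79), and for PSBY they were AT3G15490 (0.93), AT5G23540 (0.92) and AT2G22890 (0.92). After each other, PSB27 and LHB1B2 were both most like AT4G21770 (0.82 and 0.83). All these matches come from values without the position correction and were not searched again after it. Whether they follow probe position was not tested.

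The photosystem I gene was then set against the others within the same sets, as the difference of their log2 changes. PSAN minus PSBW was 0.45 (SE 0.15), PSAN minus LHB1B2 0.31 (SE 0.20), PSAN minus PSB27 0.23 (SE 0.23) and PSAN minus PSBY 0.17 (SE 0.13). Exact two-sided permutation tests over the 6 set averages gave p = 0.1, 0.3, 0.5 and 0.3. Over all 10 pairs of the 5 genes the Benjamini-Hochberg adjusted p was 0.556 for these 4, and with 3 sets against 3 no pair could go below an unadjusted 0.1. The ratio of PSAN to PSBW was higher in all 3 psad1 sets than in all 3 WT sets. The same held for the ratio of PSAN to 45.5% of the other probes that list 1 gene. Among the photosystem II and antenna genes the differences lay between −0.28 (PSBW minus PSBY, SE 0.26) and 0.14 (PSBY minus LHB1B2, SE 0.28), with exact p from 0.2 to 0.9. Whether the photosystem I member differs from the photosystem II or LHCII members was thus not settled. The permutation test could not fall below 0.1 whatever the values, so no conclusion is drawn from it.

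**Figure D4:**
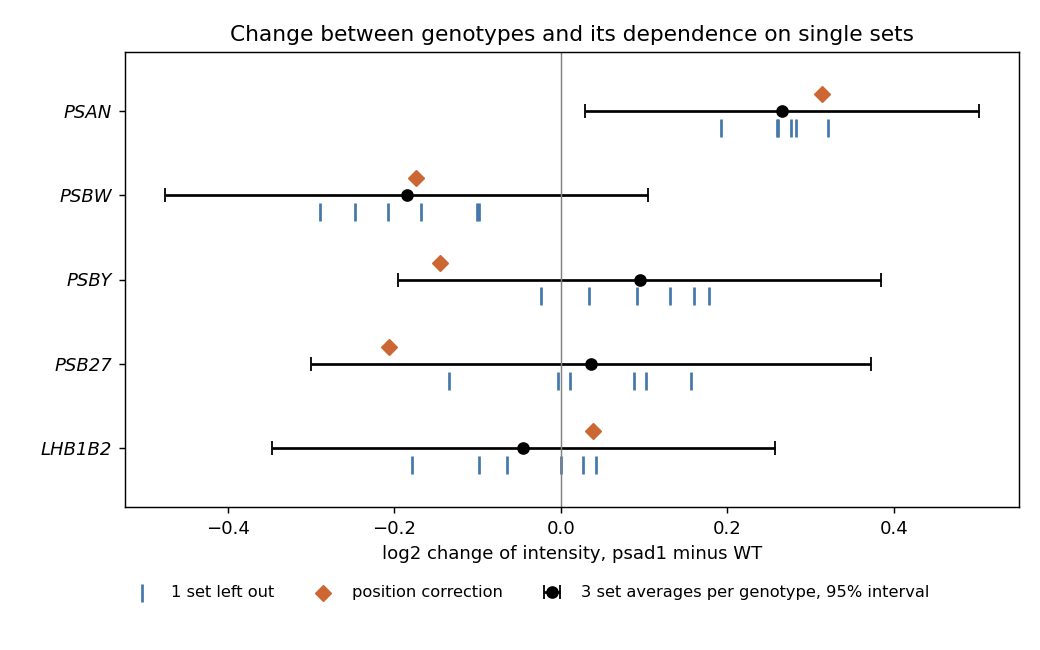
Log2 change of intensity, psad1 minus WT (horizontal axis), for the 5 genes: black points with bars give the value on 3 set averages per genotype and its 95% interval, blue ticks the values with 1 set left out, and orange diamonds the values after correction for probe position. The interval of PSAN (0.03 to 0.50) alone leaves out 0, before adjustment over all probes, and the diamonds of PSBY, PSB27 and LHB1B2 lie on the other side of 0 from their points.

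Changes varied with the place of a probe in the array's numbering, and this touched PSBY and PSB27 most. The 24 probes nearest in number had a median log2 change of 0.27 around PSBY and 0.27 around PSB27, against −0.09 around PSAN, −0.02 around PSBW and −0.07 around LHB1B2. PSBY (0.09) and PSB27 (0.04) were thus below their neighbours, and PSAN (0.27) was above its own. After subtraction of a running median over 25 neighbouring probes, the log2 change was −0.14 for PSBY, −0.21 for PSB27, 0.04 for LHB1B2, −0.17 for PSBW and 0.31 for PSAN. None of them passed, with limma adjusted p from 0.126 for PSAN to 0.929 for LHB1B2. The correlation of PSB27 with LHB1B2 over the 12 samples was 0.73 after this correction. Correlations with PSBY moved more: with PSB27 from −0.56 to 0.27, with PSAN from 0.20 to −0.68 and with PSBW from −0.67 to −0.06. PSBW and PSB27 correlated at 0.24 before and 0.50 after. That probe numbers follow the layout of the array is an assumption.

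**Figure D5:**
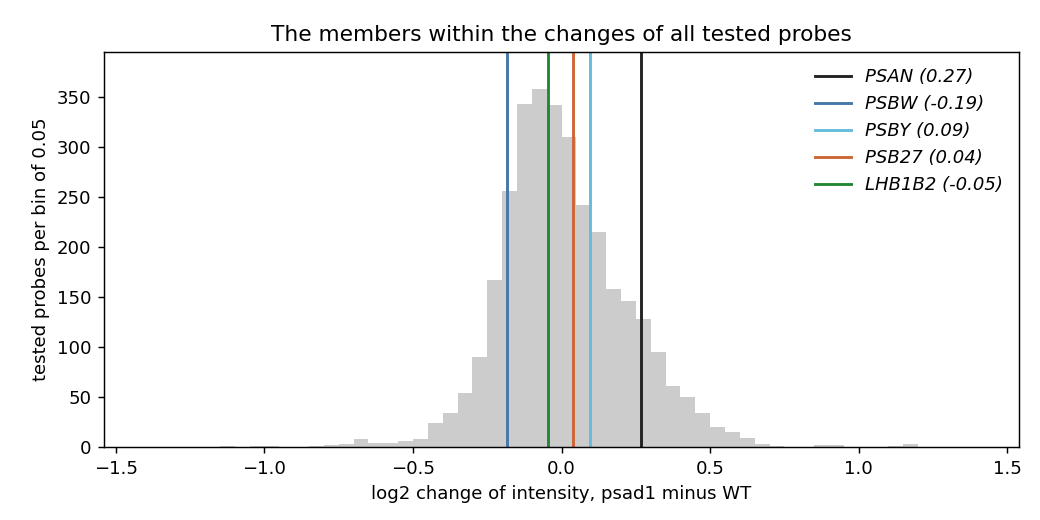
Number of tested probes (vertical axis) by log2 change, psad1 minus WT, in bins of 0.05 (horizontal axis), with the 5 genes as coloured lines. All 5 lie between the 5th and 95th percentiles of all probes (−0.29 and 0.38).

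In size, the 5 changes were ordinary for this array. PSAN stood at percentile 88.1 of the log2 changes of all tested probes, PSBY at 69.9, PSB27 at 60.6, LHB1B2 at 43.6 and PSBW at 15.0. The spread between sets was wider in psad1 than in WT for 3 of the 5 genes, PSAN, PSB27 and LHB1B2, and for 62.4% of all tested probes. The 95% intervals reflect only the spread between 3 sets per genotype, which may be technical. They are not adjusted over all probes and do not cover shifts with probe position. As multiples of the WT level they ran from 1.02 to 1.42 for PSAN, 0.874 to 1.31 for PSBY and 0.812 to 1.30 for PSB27. The interval of LHB1B2 ran from 0.786 to 1.19 and that of PSBW from 0.719 to 1.07.

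Other genes of the photosynthetic membrane were looked up in 7 lists with 92 genes, and 1 more had a tested probe of its own. Of 12 photosystem I genes 1 was measured in this way, of 15 photosystem II genes 3, of 15 LHCII genes 1 and of 22 assembly and repair genes 1. None of 6 LHCI genes, 13 genes of electron transport and ATP synthase and 9 of thylakoid protein targeting had such a probe. None of the 6 measured genes passed the limma test in either direction, which 0.874% of all tested probes did. Another 6 listed genes appear on 4 probes that name several genes and were not assigned a value. The additional gene, AT1G22700 of the assembly and repair list, measured 0.730, 0.799, 0.743, 0.852, 0.717 and 0.788 in WT samples 1 to 6 and 0.597, 0.638, 0.727, 0.718, 0.659 and 0.678 in psad1. Its set averages were lower in psad1 without overlap, as were those of 12% of all tested probes. The log2 change was −0.20 (SE 0.10, 95% interval −0.44 to 0.03, limma adjusted p 0.392), the opposite sign to PSAN. Of 8 markers of seed, root, senescence and pathogen response none had a probe of its own, so the tissue could not be checked.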

How the data were processed

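The authors' deposited values, intensities per probe, were used as given. The unit follows from the values, and the sources used here do not describe the scanner, background correction or scaling. Before log2, intensities below the 5th percentile of each sample's positive values were raised to that floor (0.152 to 0.184), and 237 probes with no sample above it were dropped. Repeats were averaged on the log2 scale and tested in R 4.3.3 with lmFit and eBayes of limma 3.58.1 and Benjamini-Hochberg adjustment. Printed means are of linear intensities. SEs and 95% intervals of single genes are limma's, and SEs of differences between genes come from the set averages. On simulated data of 3202 probes on set averages, 200 of them changed, 94% of log2 changes of 1 and 47% of 0.5 were recovered. In the deposited data 28 probes passed, and recovery may be lower where fewer than 200 probes change. Of the calls, 6.62% were false. Errors were drawn independently for each probe, without a pattern by probe position. Smaller changes, such as those of the 5 genes, were not simulated. Alternatives are in the closing section.

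Genes were named through the platform's annotation and the gene table of TAIR10.1 (690 of 692 matched). The array's build is not given, so no coordinates are printed, and no sequences are shown. Named were the members, listed genes with a probe of their own, and the 3 probes most like each member. Members, lists, sets and tests were chosen with earlier results of these data known. Same-numbered samples of both genotypes correlated from 0.00805 to 0.483 (4 of 6 over 0.1) and sets from −0.0541 to 0.488 (2 of 3). Since not every pair was over 0.1, numbers were not taken to pair them, although 8 of 12 samples and 4 of 6 sets correlated best with their own number. Figures used matplotlib 3.10.9.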

Additional observations from a re-analysis of the deposited data

Results flagged for a closer look

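Of 14 sets of 6 values examined for a sample far from the others of its genotype, 1 stood out, whereas about 1 in 20 would be marked by chance among independent samples. The mean intensity over all probes of WT sample 5 was 1.07, and its gap to the nearest WT sample was 0.708 of the WT range. None of the 5 genes had such a sample. PSAN in psad1 sample 2 was not marked, since the other psad1 samples were spread as well.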

How the results depend on the processing

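None of the 5 genes passed in 28 of the 29 alternatives. The exception was the replicate block by sample number on 12 samples, with PSBW at −0.19 (adjusted p 0.0356). A replicate block by set number, on set averages, changed no call (PSBW 0.351). PSAN stayed positive (0.16 to 0.37) and PSBW negative (−0.29 to −0.09) in all 29. Alternatives that changed only the limma fit, the floor percentile or the tested probes left these values unchanged, so they do not test the sign. Leaving out a set could not turn the sign of PSAN either, since its set averages did not overlap. The sign turned, never in a called value and with no cause tested, to −0.14 for PSBY, −0.21 for PSB27 and 0.039 for LHB1B2 after position correction. With a set or sample left out, PSBY ranged from −0.024 to 0.18, PSB27 from −0.13 to 0.16 and LHB1B2 from −0.18 to 0.043. PSAN minus PSBW, PSBY, PSB27 and LHB1B2 stayed positive in all 9 alternatives, from 0.04 to 0.57. The floor at the 10th percentile left each of these differences unchanged. For PSAN minus PSBW, whose sets did not overlap, leaving out a set could not turn the sign. Against 28 on set averages, the probes that passed numbered 505 on 12 samples (48.9% higher in psad1, against 53.6%), 84 with sets as a random block, 761 with the sample number as a replicate block (41.1% higher), 46 with the floor at the 10th percentile, 59 with an offset, 48 without dim probes and 56 after position correction. They ranged from 9 to 53 with a set or sample left out, 9 without psad1 set 2 and 53 without psad1 set 3. Median centring left 28 probes, 39.3% of them higher. The 5 genes had signals above the floor, and the number of sets limits their precision.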
